A study of Danio rerio with 4 samples.

Results

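Pax, LIM, sine oculis homeobox (six7 and its relatives), Islet, Dlx, Otx, Emx, Irx, Nkx, Pou, Meis, Onecut, Prox, Vsx and Rx genes encode transcription factors that divide the embryonic nervous system and sense organs into regions and give neurons their identity. Most bind DNA through a homeodomain, a helical module that reads short A/T-rich sites, and several carry a second domain such as the paired, POU or LIM domain. Pax1 and Pax9 lack the homeodomain, and genes such as nkx2.5, nkx3.2 and prox1 are also used outside the nervous system, in heart, skeleton, liver or lymphatic vessels.

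Genes were taken by name: every identifier whose symbol was one of those 15 stems followed by a number was a member, except an otx and an LHX gene that are not analysed here. This gave 109 genes of 32379, of which 104 had enough reads to be tested. The remaining 5 (isl1b, lhx8b, pax4, six9 and 1 of the genes listed as LHX6, ENSDARG00000052165) had at most 14 reads in any library and were not tested.

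Whole AB-strain zebrafish embryos received 3 ng of a morpholino by injection when they were at the 1-cell stage. A morpholino is a synthetic antisense oligomer that blocks the splicing or translation of the RNA it pairs with. One group had a control morpholino, and the other (the srsf5a morphants) had a morpholino against srsf5a, a gene for a serine/arginine-rich splicing factor, named sMOsrsf5a in the labels. RNA was taken at 48 hours post fertilization, and each group has 2 libraries. The labels give no mutant, no uninjected group and no rescue, and do not say whether libraries of one group share embryos, so a p-value here reflects library spread, which may be technical. The oligomers are shown because the labels give them as what differs between the groups.
control morpholino, 5′ to 3′: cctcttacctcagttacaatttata
srsf5a morpholino, 5′ to 3′: ggattcagtctcacctctcactgca

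Gene counts summed to between 15139525 and 36240893 reads per library. Control replicate 2 was the deepest library and control replicate 1 the shallowest. srsf5a itself stood at 335 and 286 CPM (reads per 1000000 gene reads) in the controls and at 335 and 368 CPM with its morpholino (log2 fold change 0.18 ± 0.11 SE, adjusted p = 0.424 in edgeR). A block of splicing need not lower the total count, so this value does not check the labels. Markers of neurons, neural progenitors, muscle, epidermis, blood and vessels were all read in every library, as whole embryos would have. Genes of differentiated photoreceptors (opsin, transducin and recoverin genes) were under 10 CPM in every library.

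Values of the homeobox family genes in the srsf5a morphants lay mostly below control, by a modest amount, and few of the genes passed the test. Of the 104 tested, 10 passed the test as lower and 1 as higher, that is 10.6% of them, where 1.98% of all 19917 tested genes passed in either direction, 0.768% as lower and 1.22% as higher. The test was edgeR's quasi-likelihood test with a Benjamini-Hochberg adjusted p under 0.05 over all tested genes. The 10 lower genes were lhx1a, lhx5, LHX9, ISL1, pou4f4, six7, SIX6 (ENSDARG00000031316), pax10, PROX1 and meis2b, and the higher gene was onecut3a. The 10 lower genes stood at between 50.1% and 66.7% of the control level, and none of the 11 reached a 2-fold change. Without control replicate 2 none of the 11 passed in edgeR (lowest adjusted p 0.105), although 37 members were lower and 2 higher at an unadjusted p under 0.05, where 5.72% and 6.89% of all genes tested without that library were. Without control replicate 1, lhx1a and six7 kept their calls, 9 of the 11 lost theirs, and POU4F2 and VSX1 passed. Without either srsf5a-morphant library none of the 11 changed sign, and the members' median was -0.26 without replicate 1 and -0.43 without replicate 2. The spread in those fits comes from the control pair alone, so calls there cannot be set beside those of the fits above.

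Values below 0 were common among genes that did not pass as well. In all, 82 members had a log2 fold change below 0 and 22 above, or 78.8% below, where 49.9% of all tested genes were below. The members' median was -0.33, and that of all tested genes 0.00027. Both srsf5a-morphant libraries lay below both controls in 70 members, or 67.3%, beside 26.3% of all tested genes, and above both controls in 10, beside 26.1%. At an unadjusted p under 0.05, 50 members were lower and 3 higher, where 10.1% and 10.5% of all tested genes were. A further 18 members lay between adjusted p values of 0.05 and 0.1, and each of the 18 was below 0. In bulk RNA, fewer cells of a type and less RNA per cell cannot be told apart, so each value is a share of the RNA of whole embryos.

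**Figure D1:**
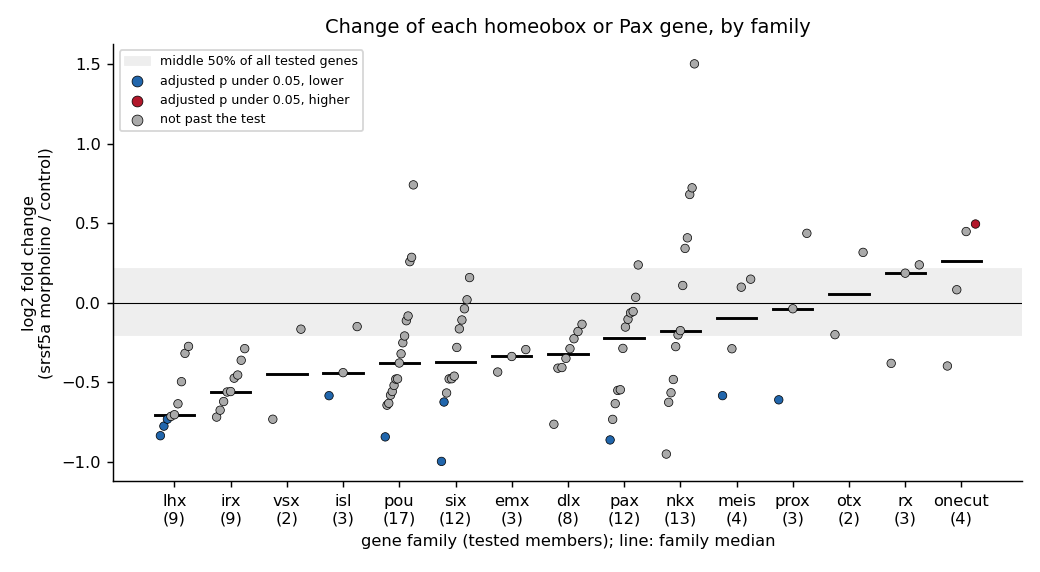
Log2 fold change (srsf5a morpholino over control, vertical axis) of each of the 104 tested genes, grouped by family along the horizontal axis in order of family median (black lines), with the interquartile range of all tested genes shaded. Points past the test are blue (10 lower) or red (1 higher), and every tested lhx, irx, isl, emx, dlx and vsx gene lies below 0.

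The LIM homeodomain genes, which pair a DNA-binding homeodomain with LIM domains that bind cofactors, gave the lowest family median. All 9 tested lhx genes were below 0 and in all 9 the groups did not overlap (median -0.70), and 3 of the 9 passed. Among all tested genes 49.9% were below 0 and 0.768% passed as lower. Both srsf5a-morphant libraries lay below both controls in 26.3% of them. lhx1a, a gene of interneurons, retinal horizontal cells and kidney, was read at 120 and 137 CPM in controls and at 64.6 and 79.3 CPM in the srsf5a morphants. Every morphant value lay far under every control value (log2 fold change -0.84 ± 0.13 SE, adjusted p = 0.0331 in edgeR). Its paralog lhx1b had 24.0 and 21.9 CPM in controls and 11.9 and 16.01 CPM in the morphants, a gap that did not pass (-0.71 ± 0.16, adjusted p = 0.0759 in edgeR).

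lhx5, which marks forebrain and spinal interneurons, went from 54.6 and 58.5 CPM to 30.7 and 37.5 CPM (-0.73 ± 0.12, adjusted p = 0.0395 in edgeR). LHX9, expressed in dorsal interneurons and forebrain, had 64.7 and 65.4 CPM in the controls, nearly equal, and 34.96 and 41.0 CPM in the morphants (-0.78 ± 0.11, adjusted p = 0.0269 in edgeR, the lowest of any member). LHX3 (-0.70) and LHX4 (-0.32), which act in motor neurons and the pituitary, did not pass, nor did LHX6 (ENSDARG00000006896, -0.50) and LHX8 (-0.27), known from the ventral telencephalon.

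The Islet genes are LIM homeodomain genes of motor neurons, sensory neurons and retinal ganglion cells. ISL1 was read at 74.3 and 78.2 CPM in controls and at 52.9 and 48.9 CPM in the srsf5a morphants. The groups were well apart, and ISL1 fell to 66.7% of control (-0.58 ± 0.10, adjusted p = 0.0384 in edgeR). Of the 2 genes listed as ISL2, ENSDARG00000053499 stood at -0.44 and ENSDARG00000003971 at -0.15, and neither passed.

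The POU genes combine a POU-specific domain with a homeodomain, and those of the Pou4 class are known from sensory neurons and retinal ganglion cells. Of 17 tested, 14 were below 0 (median -0.38), beside 49.9% of all tested genes. Of the 17, 1 passed as lower (5.88%), beside 0.768% of all tested genes. pou4f4 had 68.1 and 66.2 CPM in controls and 33.6 and 41.2 CPM in the srsf5a morphants. Both morphant values were well under either control (-0.84 ± 0.12, adjusted p = 0.0277 in edgeR). POU4F1 (-0.64, adjusted p = 0.0864) and POU4F2 (-0.63, adjusted p = 0.0645) did not pass in edgeR. POU4F3, the hair cell gene of the class, stood at -0.08 with overlapping groups.

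The Pou3 genes, used in neural progenitors and young neurons, held the family's most read member. pou3f1 stood at 236 and 230 CPM in controls and at 126 and 186 CPM in the morphants. Its 2 morphant libraries lay further from each other than the nearer did from the controls, and it did not pass (-0.58 ± 0.17, adjusted p = 0.127 in edgeR). POU3F2 (-0.48) and pou3f2a (-0.52) also lay below both controls without passing, while pou3f3a (-0.11) and pou3f3b (-0.21) overlapped them. The 3 POU genes above 0 were pou5f3, the fish relative of Oct4 (0.74), the pituitary gene POU1F1 (0.29) and pou2f3 (0.26), each under 5 CPM and none past the test.

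The Iroquois genes, which act in neural patterning and in heart and retina, had no call. All 9 were below 0 (median -0.56), beside 49.9% of all tested genes. In all 9 both srsf5a-morphant libraries lay below both controls, beside 26.3% of all tested genes. In edgeR 8 of the 9 were lower at an unadjusted p under 0.05, beside 10.1% of all tested genes. Among all 19917 tested genes DESeq2 called 458 as lower, and 4.92% in either direction. It called 2 of the 9 Iroquois genes as lower. More were called lower by DESeq2 in the pou (5), lhx (4), pax (3) and sine oculis homeobox (3) families, and at most 1 in each other family. IRX2 was read at 32.995 and 31.9 CPM in controls and at 20.9 and 23.0 CPM in the srsf5a morphants, just outside the threshold (-0.56 ± 0.11, adjusted p = 0.0524 in edgeR). IRX5, the most read, had 58.6 and 57.2 CPM against 40.3 and 49.9 CPM (-0.36 ± 0.12, adjusted p = 0.164 in edgeR). irx5b had 12.8 and 16.7 CPM against 9.50 and 9.81 CPM (-0.62 ± 0.16, adjusted p = 0.0969 in edgeR). The largest Iroquois value was that of IRX4 (-0.72), and irx7 had the smallest (-0.29).

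The sine oculis homeobox genes, whose proteins bind Eya cofactors, held 2 of the calls. Of 12 tested, 10 were below 0 (median -0.37), beside 49.9% of all tested genes. Of the 12, 2 passed as lower (16.7%), beside 0.768% of all tested genes, and both are genes of the eye. six7, a fish gene needed for green cone opsin expression, stood at 26.2 and 33.3 CPM in controls and at 15.6 and 14.4 CPM in the srsf5a morphants. It fell to 50.1% of control, the lowest level among the members that passed (-0.998 ± 0.15, adjusted p = 0.031 in edgeR).

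SIX6 (ENSDARG00000031316), a gene of retinal progenitors and pituitary, had 22.8 and 23.6 CPM in controls and 14.96 and 15.2 CPM in the morphants, with tight replicates in both groups (-0.62 ± 0.11, adjusted p = 0.045 in edgeR). Its other copy (ENSDARG00000025187) was read at only 2.81 and 3.35 CPM against 2.21 and 2.25 CPM (-0.48 ± 0.24, adjusted p = 0.317 in edgeR). The 2 genes listed as SIX3, of forebrain and eye, lay on either side of 0, at -0.57 (ENSDARG00000058008) and 0.16 (ENSDARG00000054879), and their difference was not tested. six5, the most read gene of the family, had 42.3 and 40.3 CPM against 39.3 and 37.2 CPM (-0.11 ± 0.10, adjusted p = 0.587 in edgeR).

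The Vsx and Rx genes complete the eye genes. VSX1, of retinal bipolar cells and spinal interneurons, was read at 50.9 and 64.3 CPM in controls and at 37.3 and 32.3 CPM in the srsf5a morphants. The control libraries differed from each other more than the morphant libraries did, and VSX1 lay just outside the threshold (-0.73 ± 0.14, adjusted p = 0.0519 in edgeR). rx1 had 13.8 and 16.005 CPM against 15.2 and 20.1 CPM, overlapping (0.24 ± 0.17, adjusted p = 0.467 in edgeR), and rx2 had 8.22 and 9.05 CPM against 7.11 and 6.20 CPM (-0.38 ± 0.16, adjusted p = 0.243 in edgeR). These eye genes thus lay on both sides of 0.

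Most Pax genes carry a paired domain, and some carry a homeodomain. Of 12 tested, 10 were below 0 (median -0.22), beside 49.9% of all tested genes. Of the 12, 1 passed as lower (8.33%), beside 0.768% of all tested genes. pax10, a Pax6 relative, had 9.48 and 10.6 CPM in controls and 5.60 and 5.48 CPM in the srsf5a morphants. Its morphant libraries were almost equal and far under the controls (-0.86 ± 0.15, adjusted p = 0.0446 in edgeR). Both genes listed as PAX2, used at the midbrain-hindbrain boundary, optic stalk, ear and kidney, were below 0 without passing. One (ENSDARG00000028148) had 59.2 and 66.5 CPM against 39.9 and 46.3 CPM (-0.55 ± 0.12, adjusted p = 0.0637 in edgeR). The other (ENSDARG00000032578) had 21.0 and 21.6 CPM against 11.1 and 14.5 CPM (-0.73 ± 0.15, adjusted p = 0.0602 in edgeR). PAX8, of ear, thyroid and kidney, stood at -0.63, and PAX6, the eye and forebrain gene, at -0.55, neither past the test. PAX1 (0.24 and -0.06) and PAX9 (-0.05), genes of the sclerotome and pharynx, lay near 0, as did PAX3 (-0.15 and 0.03).

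The Dlx and Emx families, only some of whose genes are named for the forebrain here, were below 0 throughout, with no gene past the test. All 8 dlx genes were below 0 (median -0.32). In edgeR 4 were lower at an unadjusted p under 0.05, beside 10.1% of all tested genes, and DESeq2 called 1. DLX1, a gene of forebrain GABA neurons, had 24.9 and 17.9 CPM in controls and 10.6 and 14.4 CPM in the srsf5a morphants. Its control libraries were far apart (-0.76 ± 0.21, adjusted p = 0.103 in edgeR). DLX3, of the ear placode and branchial arches, had 35.5 and 30.4 CPM against 29.2 and 30.6 CPM and overlapped (-0.13 ± 0.12, adjusted p = 0.566 in edgeR). EMX2, of the dorsal telencephalon, had 28.9 and 30.2 CPM against 21.3 and 22.5 CPM (-0.44 ± 0.11, adjusted p = 0.0872 in edgeR). The 3 emx genes had a median of -0.34, 1 had an unadjusted p under 0.05 in edgeR, and DESeq2 called 0.

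The Nkx genes spanned the widest range of values of any family, from -0.95 to 1.504. Of 13 tested, 7 were below 0 and 6 above (median -0.17), none passed in edgeR, and DESeq2 called 1 lower. In edgeR 4 were lower and 2 higher at an unadjusted p under 0.05, beside 10.1% and 10.5% of all tested genes. NKX2-4, a hypothalamic gene, had 7.75 and 7.31 CPM in controls and 3.56 and 4.205 CPM in the srsf5a morphants, just outside the threshold (-0.95 ± 0.18, adjusted p = 0.0519 in edgeR). NKX2-1, of hypothalamus and thyroid (-0.63), and NKX2-2, of the ventral neural tube (-0.48), also lay under both controls without passing. NKX6-1, the most read, had 34.1 and 31.6 CPM against 21.7 and 32.5 CPM, so that 1 morphant library was within the controls and the other was not (-0.28 ± 0.19, adjusted p = 0.452 in edgeR). The heart genes NKX2-5 (0.41) and nkx2.7 (0.72) and nkx2.9 (1.504), a gene of the ventral neural tube, had positive values, all at under 5 CPM and none past the test. nkx2.9 had 1.14 and 0.736 CPM in controls and 1.605 and 3.48 CPM in the morphants, the largest value of any member, with the morphant libraries far apart.

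The Meis genes, TALE-class partners of Hox and Pbx proteins, were read at high levels. meis2b stood at 240 and 242 CPM in controls and at 151 and 170 CPM in the srsf5a morphants. The controls were almost equal, and meis2b fell to 66.7% of control (-0.58 ± 0.10, adjusted p = 0.0395 in edgeR). MEIS1 had 261 and 253 CPM against 203 and 217 CPM (-0.29 ± 0.09, adjusted p = 0.145 in edgeR), while meis1a had 56.1 and 50.2 CPM against 55.1 and 62.6 CPM (0.15 ± 0.11, adjusted p = 0.495 in edgeR). meis3 stood at 0.10.

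PROX1, which is used in lens, liver, lymphatic vessels and retinal horizontal cells, had 68.9 and 78.1 CPM in controls and 49.4 and 47.1 CPM in the srsf5a morphants. The groups were apart by more than either spread (-0.61 ± 0.10, adjusted p = 0.0395 in edgeR). PROX2 (0.44) and prox3 (-0.04) did not pass.

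onecut3a was the member that rose. Onecut factors, which join a CUT domain to a homeodomain, act in liver and pancreas and in retinal and motor neurons. onecut3a stood at 55.4 and 55.3 CPM in the controls, equal to within a fraction of a CPM, and at 76.8 and 79.3 CPM in the srsf5a morphants (0.50 ± 0.09, adjusted p = 0.0457 in edgeR). Its call ended when no filter on low counts was used (adjusted p = 0.0547), as did that of SIX6 (ENSDARG00000031316, adjusted p = 0.0506). The gene listed as ONECUT3 had 0.802 and 1.23 CPM against 1.21 and 1.66 CPM (0.45 ± 0.37, adjusted p = 0.54 in edgeR), and ONECUT1 had overlapping groups (0.08). Of the Otx genes, otx2a had 11.8 and 11.04 CPM against 12.4 and 15.9 CPM (0.32 ± 0.16, adjusted p = 0.313 in edgeR), and OTX1 stood at -0.20 near 1 CPM. Both Otx genes were without a call in edgeR or DESeq2, and 0 had an unadjusted p under 0.05.

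**Figure D2:**
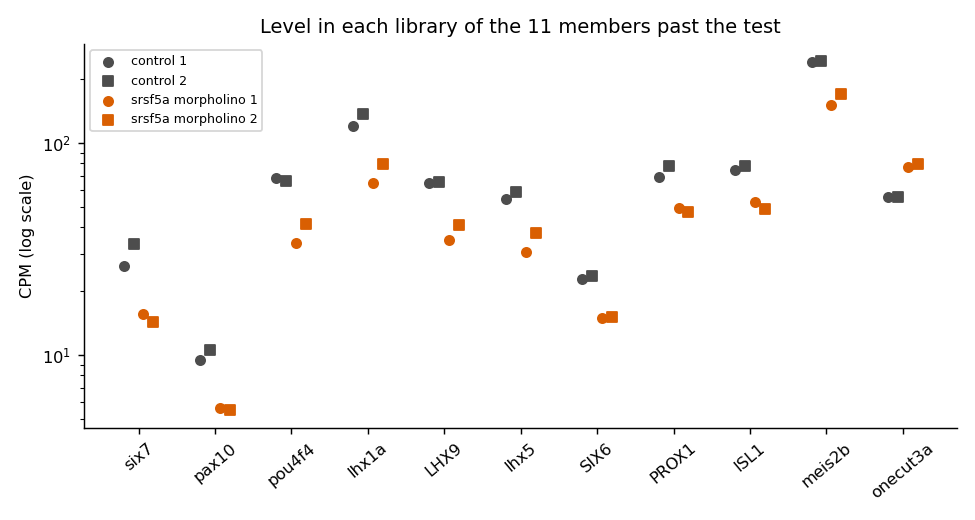
Level in CPM (log scale) in each of the 4 libraries for the 11 genes past the test, in order of log2 fold change. Both srsf5a-morphant points (orange) lie below both control points (grey) for the 10 lower genes and above them for onecut3a.

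Genes of the same number were compared as pairs, since zebrafish keeps many duplicates from a whole-genome duplication. Of 19 such pairs with both genes tested, 13 were below 0 in both copies, 1 above 0 in both (onecut3a with ONECUT3) and 5 had opposite signs. The pairs below 0 included IRX4 and irx4b (-0.72 and -0.68), POU3F2 and pou3f2a, and the PAX2 copies. The opposite pairs were those of MEIS1, PAX1, PAX3, SIX2 and SIX3, in which no gene passed the test, and in the PAX3 and SIX2 pairs a sign changed when 1 library was left out. Close copies can lose reads to one another, because reads with several alignments were set aside, and this was not tested.

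Position was read from the RefSeq gene order of assembly GRCz12tu, used for neighbours only. By name, 75 members matched 1 RefSeq gene, and 6 pairs of tested members were direct neighbours. DLX5 and DLX6, neighbours with shared forebrain enhancers in mammals, stood at -0.41 and -0.41. nkx2.9 (1.504) lay beside PAX9 (-0.05) and NKX2-1 (-0.63). None of these passed the test.

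The sign of the values varied with level. Of 79 members with a mean of at least 5 CPM over the 4 libraries, 70 were below 0 (median -0.44) and 11 passed. Of the 25 under 5 CPM, 12 were below 0 and 13 above (median 0.03) and none passed in edgeR. Low counts also limit what can pass. All tested genes were not split by level, so neither group has a matching share beside it. Over all levels 49.9% of them were below 0 and 1.98% passed in either direction.

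The 2 srsf5a-morphant libraries also differed from each other. Replicate 1 was below replicate 2 in 77 of the 104 members, or 74.0%, beside 49.4% of all tested genes. Taken as a share of each gene's control mean, the members' median level was 75.04% in replicate 1 and 83.3% in replicate 2. For lhx genes the medians were 54.2% and 67.5%, for irx genes 67.5% and 70.9%, for pou genes 65.6% and 80.9%, and for pax genes 70.5% and 93.6%. For sine oculis homeobox genes they were nearly equal, at 78.1% and 76.2%. The nkx medians were 84.1% and 98.9%, with replicate 1 lower in 12 of 13 genes. The median over all tested genes was 99.97% in replicate 1 and 99.7% in replicate 2.

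**Figure D3:**
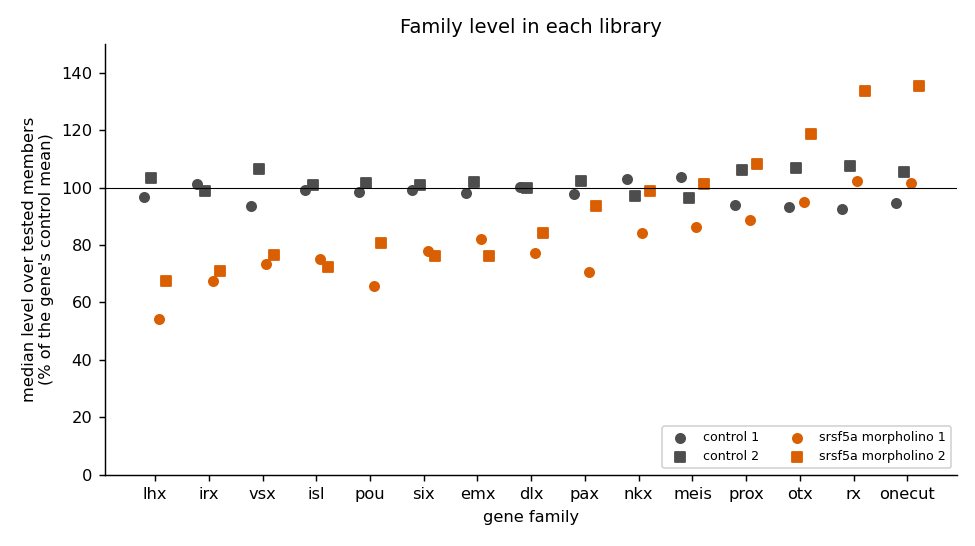
Median level of each family's tested genes in each library, as a percentage of each gene's control mean, with families ordered by median change. For lhx, irx, vsx, isl, pou, sine oculis homeobox, emx, dlx and pax genes both srsf5a-morphant points lie under both control points. For nkx, meis, prox, otx, rx and onecut genes they do not.

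General markers of neurons were also below 0. All 8 tested neuron markers were below 0 (median -0.27) and their summed level was 1447 and 1394 CPM in the controls against 1125 and 1140 CPM in the srsf5a morphants. Both SNAP25 genes (-0.07 and -0.04) and a STMN2 gene (ENSDARG00000033234, -0.21) had overlapping groups. ELAVL3, an RNA-binding protein of young neurons, had 642 and 597 CPM against 403 and 516 CPM. It was the most read of these markers, had the lowest value (-0.43) and so weighed most in the summed level. None of the neuron markers passed in edgeR. For these and the marker lists below, the shares over all tested genes were 49.9% below 0, 0.768% passing as lower and 1.22% as higher. Of 8 progenitor and glial markers 6 were below 0, and 1 passed, a FABP7 gene (ENSDARG00000007697) with 432 and 453 CPM against 295 and 279 CPM. Their summed level was 1890 and 1884 CPM against 1437 and 1773 CPM, again lower in replicate 1. None of these markers was at 0 in all libraries, and their part in the change of the homeobox genes was not tested. Lists from outside the nervous system lay on both sides of 0. All 5 tested blood markers were below 0 (median -0.22), with a summed level of 2383 and 1917 CPM against 1491 and 1584 CPM. Most of that level came from hbae3, with 1830 and 1417 CPM against 1121 and 1190 CPM (-0.49), which did not pass. The groups overlapped for gata1a (-0.03), alas2 (-0.22) and an SLC4A1 gene (ENSDARG00000024560, -0.02). The other SLC4A1 gene, for the red cell anion exchanger, was the 1 that passed as lower (ENSDARG00000012881, -0.61, adjusted p = 0.0395 in edgeR). Of 5 liver and gut markers 4 were below 0 (median -0.21), with a summed level of 1049.8 and 1347 CPM against 563 and 701 CPM, most of it from the transferrin gene tfa, which passed as lower (-1.04, adjusted p = 0.0331 in edgeR). The medians of muscle (0.13), epidermis (0.32) and endothelium (0.03) markers were above 0. Among the retinal markers, atoh7, which starts ganglion cell formation, had 14.6 and 17.1 CPM against 5.86 and 10.02 CPM without passing, whereas the summed level of that list was 43.9 and 49.1 CPM against 57.6 and 52.5 CPM. The cone transducin gene GNAT2 (1.92, adjusted p = 0.0342) and rbp4l (0.75, adjusted p = 0.045) passed as higher in edgeR.

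Other homeobox genes were mostly below 0 too. Of 68 further homeobox genes tested, 58 were below 0 (median -0.38), 4 passed as lower and 0 as higher. Of all tested genes 49.9% were below 0, 0.768% passed as lower and 1.22% as higher. The 4 lower genes were both OTP genes, of the hypothalamus (-0.83 and -0.61), the skeletal and neural gene SHOX (-0.78) and ZFHX4, a zinc finger homeobox gene (-0.68). SHOX was read at 70.7 and 78.3 CPM against 44.9 and 42.3 CPM, and ZFHX4 at 394 and 424 CPM against 256 and 256 CPM.

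The proteins that work with these families were also mostly below 0. Of 36 cofactor genes 31 were below 0 (median -0.25) and 1 passed, where 1.98% of all tested genes passed in either direction. Among the 36 were the Eya and Dach partners of the sine oculis homeobox proteins, and LIM-binding, LIM-only, Pbx and Tle genes. LMO3, a LIM-only gene, had 68.8 and 71.3 CPM in controls and 43.9 and 46.5 CPM in the srsf5a morphants (-0.63 ± 0.09, adjusted p = 0.0311 in edgeR).

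The signals that pattern the neural tube upstream of these genes lay on both sides of 0. Of 43 genes of the hedgehog, Wnt, Fgf, Bmp and retinoic acid pathways 20 were below 0 and 23 above (median 0.03). None passed in edgeR or DESeq2. In edgeR 2 were lower and 2 higher at an unadjusted p under 0.05, where 10.1% and 10.5% of all tested genes were. Among 37 genes of transmitter synthesis and transport 22 were below 0 (median -0.10), and GAD2, which makes GABA, passed as lower (-0.71). GAD2 was the only gene of the 37 to pass, where 1.98% of all tested genes passed in either direction. Of the 6 genes called in these lists, all lost their call without control replicate 2 and 4 without control replicate 1, SHOX and GAD2 excepted.

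**Figure D4:**
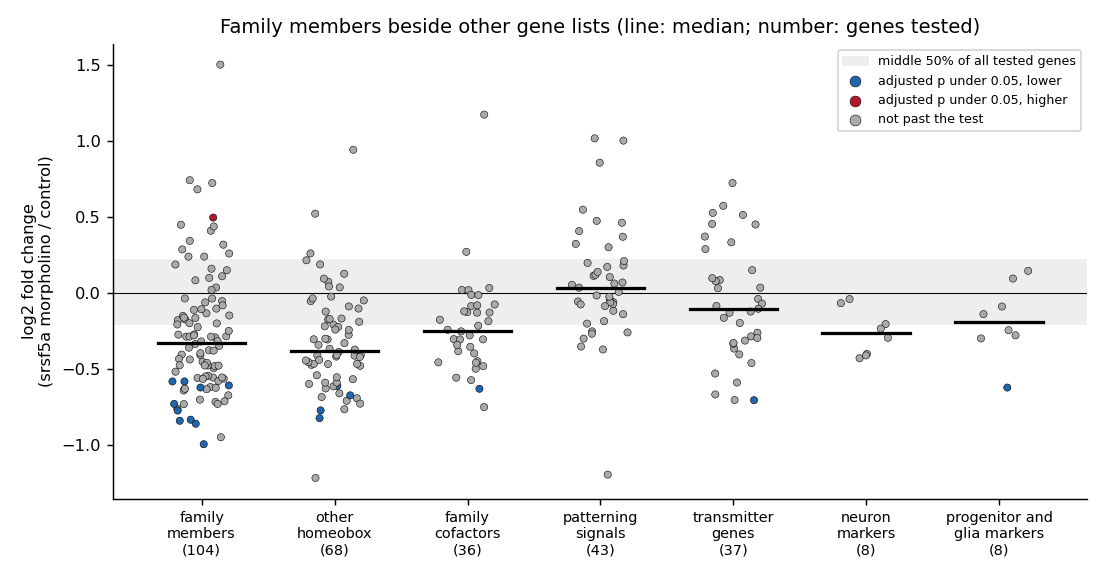
Log2 fold change (srsf5a morpholino over control) of each tested gene of the homeobox families and of the other lists, with list medians as black lines and the interquartile range of all tested genes shaded. The medians of the families (-0.33), other homeobox genes (-0.38), cofactors (-0.25) and neuron markers (-0.27) lie under the shaded band. Those of the patterning signals (0.03), transmitter genes (-0.10) and progenitor and glial markers (-0.19) lie within it.

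In the authors' deposited table, 23 members were lower and 1 higher at an adjusted p under 0.05, of 93 members given an adjusted p. Over all genes of the authors' deposited table with an adjusted p, 2.99% were lower and 3.14% higher. All 11 members called here were among those 24. The others in the authors' deposited table included VSX1 (-0.64), both PAX2 genes (-0.49 and -0.60), POU4F2 (-0.56) and lhx1b (-0.59), on the authors' own log2 scale.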

How the data were processed

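Embryo RNA was counted per Ensembl gene in 4 libraries. Per the submitters' processing notes, the tools included TopHat, HTSeq, DESeq2 and Picard, on Zv9; "not given in the sources used here" applies to versions, annotation and strand setting. The deposited counts are whole reads. Their summary totals stayed out of every test: 53.0% to 57.1% of listed reads were assigned to genes, and 29.0% to 34.2% had several alignments. The authors' deposited table, with a signal (mean normalized count), log2 fold changes, a score (Wald statistic) and p-values, was used only where named.

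Symbols came from a supplied table (20603 identifiers named), in which paralogs can share a symbol in capitals. The quasi-likelihood test of edgeR 4.0.16 (R 4.3.3) was run on 19917 genes and tested on simulated data. It used TMM, filterByExpr with minimum count 10 and minimum total 15, and group as the only term. The simulated counts had the same relative spread for every gene, so they cannot show how the test does where that spread differs between genes. A fold change is srsf5a morphant over control, on the log2 scale. CPM uses TMM-scaled totals and is compared within a gene only. A count of 0 allows up to 3 counts, which is 0.198 CPM in the shallowest library (counting error only). Within groups, libraries varied beyond sampling noise (chi-square/df 9.16 and 14.2). DESeq2 1.42.0 was an alternative.

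Members and lists were chosen with earlier results of these data known, and no test was made over a list. Full values are given by rule for every call, for the lowest p and the most counts in each family, and for paralogs of the same number. In other lists up to 3 calls, or the most abundant gene, are named. Genes named beyond this were chosen after their values were seen. Some genes the rule names are not reported here.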

Additional observations from a re-analysis of the deposited data

How the results depend on the processing

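The members' median log2 fold change stayed between -0.43 and -0.26 under all alternatives tried, which were RLE or upper quartile factors, 2 other filters, DESeq2, a replicate block and leaving out each library, and of the 104 tested members 79 to 85 were below 0 wherever all 104 were tested. Counts of calls depended on the setting. The 395 genes called (242 higher, 153 lower) became 522 higher and 458 lower with DESeq2. Leaving out 1 library gave 31 to 702 genes higher and 2 to 708 lower, and 0 to 36 members lower and 0 to 2 higher. Members called were 23 lower with DESeq2, and with no filter 0 were higher. With 1 library left out the lone library of a group is assumed to vary like the other group's pair. None of the 32 members named by rule changed sign under any alternative. Of the other tested members 14 changed sign when 1 library was left out, none of them called, among them meis3, ONECUT1, OTX1, both PAX3 genes, PAX9, POU1F1, pou3f3a, POU4F3 and prox3. Of the 32 members named by rule, 8 passed with DESeq2 that had not in edgeR.

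With the replicate number as a block, 865 genes were higher and 717 lower, and 32 members were lower and 2 higher, all 11 calls among them. The labels give the numbers no shared batch. Over genes, the difference between replicates 1 and 2 of the controls correlated with that of the srsf5a-morphant libraries (r = 0.46 over 19917 genes, which are not independent), a hint from the data and not the design.

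Depth and 2 libraries per group limit the low genes: 25 tested members averaged under 5 CPM.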
